A study of Mus musculus with 6 samples.

Results

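The open chromatin at 7 genes that T cells switch on after their antigen receptor is engaged was taken from a list of peaks shared by 6 ATAC-seq libraries, made from T follicular helper cells of mice. The genes were Nr4a1, Nr4a2, Nr4a3, Egr2, Egr3, Nfatc1 and Cd69, and every peak that the deposited list assigned to one of these symbols was kept. They had 101 peaks, of the 148063 peaks with a gene symbol, and the list held 282898 peaks and 19109 symbols in all. Of the 101 peaks, 19 were promoter peaks, which the list annotates as lying at a transcription start site, within 999 bases of it, and the other 82, annotated to introns, exons, untranslated regions and gene ends, are called distal here even where they lie close to a start. The first 6 genes encode transcription factors, whereas Cd69 encodes a cell-surface protein.

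The libraries came from Stat6 knockout (KO) and Stat6 wild-type (WT) mice of strain C57BL/6, and from the sorted populations Tfh21, Tfh214 and Tfh4 of each genotype. The cells were untreated. Flow sorting used 10 mice of each genotype, and 1 library was made from each population of each genotype, so no group had a replicate. Which part of Stat6 the knockout allele lacks, the age of the mice and the tissue were not given in the sources used here.

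T cell receptor engagement raises calcium in the cell, calcineurin then removes phosphate from NFAT proteins, and NFAT enters the nucleus and acts with AP-1. The NR4A orphan nuclear receptors and the EGR zinc finger factors are immediate early genes of this pathway; NFATc1 is a member of the NFAT family whose gene is itself induced by NFAT, and CD69 is an early activation marker. Follicular helper T cells meet antigen on B cells in the germinal centre, and Stat6 carries the interleukin-4 signal to the nucleus. In ATAC-seq a transposase cuts accessible DNA, so that the number of reads in a peak is a measure of how open it is.

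Promoter sequences of 4 of the 7 genes were matched by symbol in a RefSeq table of build GRCm38.p6, in which each entry runs from 250 bases before a start to 50 bases after it. They are shown because each lies at a start site with a promoter peak described below, although the peaks themselves are in build mm9. The Nr4a1 sequence was chr15:101266596-101266895 on the plus strand, Nr4a2 was chr2:57123954-57124253 on the minus strand, Nr4a3 was chr4:48045055-48045354 on the plus strand and Egr2 was chr10:67537680-67537979 on the plus strand. Egr2 had 5 starts in the table, and the one whose distance to the end of the gene was nearest to the length of the transcript in the deposited list is shown. The only Nr4a2 start in the table is that of its longer transcript. Capitals mark the half-site of the cyclic AMP response element (CRE), TGACG on either strand, which is the sequence read by CREB and related factors.
Nr4a1: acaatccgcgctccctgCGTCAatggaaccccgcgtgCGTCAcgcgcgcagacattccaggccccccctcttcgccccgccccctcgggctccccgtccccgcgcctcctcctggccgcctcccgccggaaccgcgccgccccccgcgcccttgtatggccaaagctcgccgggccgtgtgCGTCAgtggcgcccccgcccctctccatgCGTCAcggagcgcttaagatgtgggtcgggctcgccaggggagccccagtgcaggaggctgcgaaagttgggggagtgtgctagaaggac
Nr4a2: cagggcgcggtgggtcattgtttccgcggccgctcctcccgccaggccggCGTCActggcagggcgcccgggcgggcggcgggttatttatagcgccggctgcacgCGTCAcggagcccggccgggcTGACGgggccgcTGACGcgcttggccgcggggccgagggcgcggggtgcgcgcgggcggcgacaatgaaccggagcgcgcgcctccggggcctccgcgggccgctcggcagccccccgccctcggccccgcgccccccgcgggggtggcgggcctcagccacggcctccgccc
Nr4a3: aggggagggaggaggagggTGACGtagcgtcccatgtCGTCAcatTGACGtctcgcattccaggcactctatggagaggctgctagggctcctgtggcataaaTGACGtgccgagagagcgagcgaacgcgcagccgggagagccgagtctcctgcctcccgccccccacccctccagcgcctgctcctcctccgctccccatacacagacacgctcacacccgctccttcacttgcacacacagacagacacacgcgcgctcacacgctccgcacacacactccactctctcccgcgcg
Egr2: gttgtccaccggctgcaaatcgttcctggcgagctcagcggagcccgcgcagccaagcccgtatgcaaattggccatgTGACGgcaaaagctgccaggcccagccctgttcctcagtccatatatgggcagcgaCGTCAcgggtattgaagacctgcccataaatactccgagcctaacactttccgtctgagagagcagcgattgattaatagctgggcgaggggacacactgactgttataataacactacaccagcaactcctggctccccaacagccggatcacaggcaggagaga

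The CRE half-site was present 4 times each in the Nr4a1, Nr4a2 and Nr4a3 promoters and 2 times in the Egr2 promoter. Of 32851 mouse promoters of the same length in the table, 20.8% held at least 1 half-site, 5.01% held at least 2 and 0.231% held at least 4. The motif was picked out after these sequences had been read, so its frequency is a description. The EGR motif GCGNGGGCG was found once in Nr4a1 and once in Nr4a2, against 5.55% of all promoters with a match. The serum response CArG box matched once in Egr2, against 1.63% of all promoters. The TATA box TATAAA matched once in Nr4a2, against 13.6% of all promoters. The NFAT core GGAAA matched once in Nr4a2 and once in Egr2, against 61.3% of all promoters. The full CRE, TGACGTCA, the AP-1 motif TGANTCA and the NR4A motif AAAGGTCA were searched on both strands and none of these letters occurred in the 4 windows, against 1.79%, 7.81% and 1.51% of all promoters that held each. Overlapping matches were counted, and every full CRE holds CRE half-sites.

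The depth recovered for each library was 798555 to 1238585 reads in peaks for KO and 1122701 to 1373218 reads for WT. Values are CPM, read counts scaled to the same total of reads in the listed peaks in every library, and 1 read was worth 0.728 to 1.25 CPM. All 16 T cell and follicular helper marker genes searched had peaks, with 718 to 999 CPM summed over the list in KO and 733 to 808 CPM in WT libraries. Of 10 B cell genes 8 had peaks, with 130 to 147 CPM summed in KO and 143 to 184 CPM in WT, while Cd79a and Ms4a1 had none. Myeloid genes had 97.7 to 108 CPM in KO and 95.4 to 119 CPM in WT, CD8 T and NK cell genes 15.03 to 25.03 CPM in KO and 16.9 to 23.3 CPM in WT, with Cd8a and Ncr1 at 0, and erythroid genes 24.7 to 28.8 CPM in KO and 27.7 to 34.7 CPM in WT, with Gata1 and Hbb-b1 at 0. Start-site peaks took 36.4%, 34.9% and 29.7% of the reads of KO Tfh21, Tfh214 and Tfh4 cells, against 31.5%, 31.0% and 27.7% in the WT libraries of those populations. This share therefore moved with both genotype and population, and its part in the results below was not tested. In bulk libraries of this kind, a smaller number of cells with an open site and a less open site in each cell cannot be told apart.

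All 7 genes had promoter and distal peaks, but the signal was placed differently. Per kilobase of promoter peak, Egr2 had the highest level of the 7 genes, with a mean of 59.8 ± 10.99 CPM per kb (SD over 6 libraries), which exceeded the level of 97.3% of all 13799 genes with a promoter peak. Nr4a3 followed at 37.2 ± 8.23 CPM per kb. Nr4a2 at 28.9 ± 4.75 and Nr4a1 at 25.9 ± 5.35 CPM per kb lay within 1 SD of the median over all genes, 25.9 CPM per kb. Nfatc1 at 23.4 ± 2.41 and Cd69 at 21.4 ± 4.04 CPM per kb lay slightly more than 1 SD below it. Egr3 was the lowest at 16.4 ± 3.30 CPM per kb.

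Per kilobase of distal peak, the order of the genes was another one. Cd69 was highest at 15.4 ± 4.12 CPM per kb, followed by Egr2 at 14.5 ± 7.03, Nr4a2 at 13.5 ± 3.32, Nfatc1 at 13.3 ± 1.29, Egr3 at 12.1 ± 7.77, Nr4a3 at 10.4 ± 2.70 and Nr4a1 at 7.82 ± 1.93 CPM per kb. All 7 exceeded the median of 5.16 CPM per kb over genes with distal peaks, and neighbours in this order did not differ beyond their spread. Nfatc1 had 53 distal peaks, which held 88.1% of its reads, whereas the single start-site peak of Egr2 held 94.7% of the Egr2 reads. Over all peaks with a symbol, 48.0% of reads were at promoters.

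**Figure D1:**
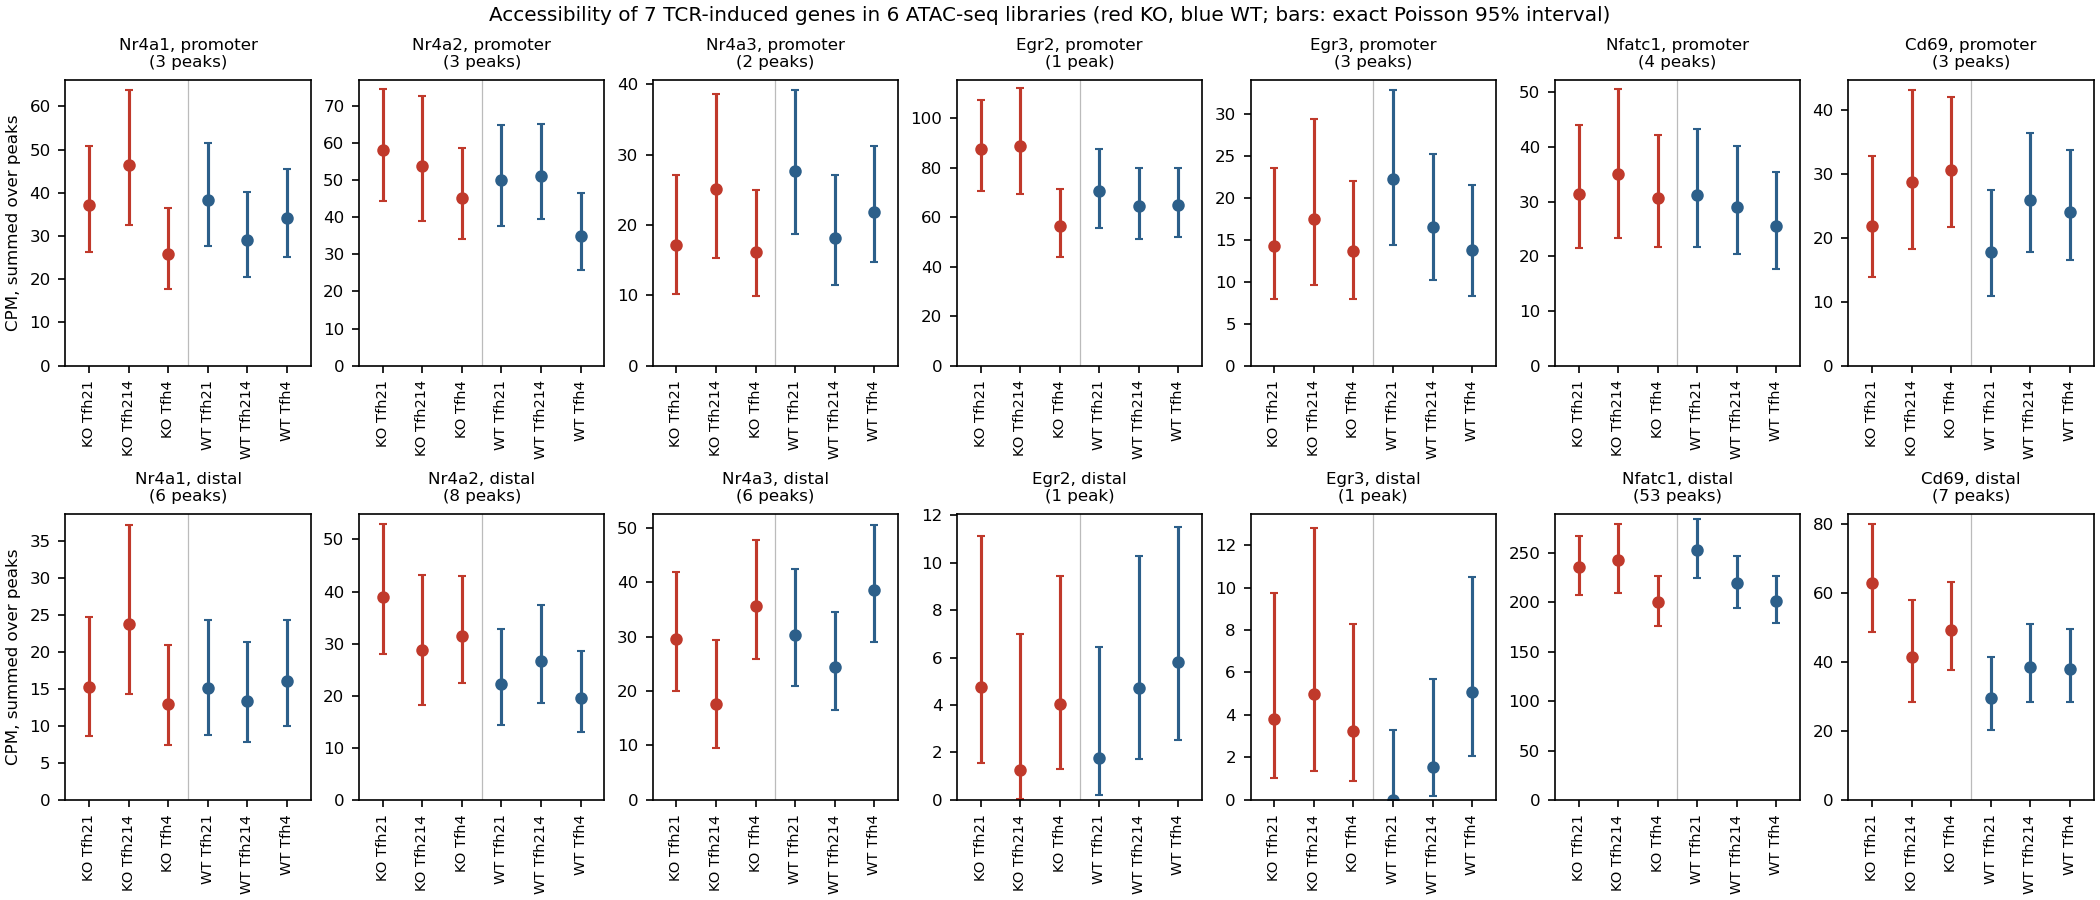
CPM summed over the promoter peaks (upper row) and the distal peaks (lower row) of each gene, in the 3 KO libraries (red) and the 3 WT libraries (blue). Points are single libraries and bars are exact Poisson 95% intervals of the reads, which cover counting error only. The Cd69 and Nr4a2 distal points of KO all lie above those of WT, and no promoter panel shows this.

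The comparison of KO with WT asks whether loss of Stat6 changes the openness of these loci. The additive model used genotype and population as terms over the 6 libraries, with limma on log2(CPM + 1). Its p-values and SE set the genotype effect against the spread that remains between populations, after that spread is drawn towards a trend. The trend of variance with level is fitted over all features, so p and SE rest largely on other features and not on the spread of the feature itself. Sums and peaks entered the test when they averaged 20 reads or more, which left 6 of 7 promoter sums, 4 of 7 distal sums and 7 of the 101 single peaks. No member passed an adjusted p of 0.05 (limma, Benjamini-Hochberg). The background was 1.02% of 7087 promoter sums, 0.0579% of 5184 distal sums and 0.857% of 8986 single peaks. At an unadjusted p of 0.05 the counts were 0 of 6 promoter sums, 2 of 4 distal sums and 3 of 7 single peaks, against 19.5%, 9.92% and 21.0% of all features. edgeR and DESeq2 on the recovered reads also called 0 members. The share of all features that these tools called is not given here, so that count shows nothing particular to the members.

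The NR4A genes encode nuclear receptors that bind DNA without a known endogenous ligand, and Nr4a1 is widely used as a reporter of recent receptor signalling. At the Nr4a1 promoter, KO libraries had 37.1, 46.3 and 25.8 CPM in Tfh21, Tfh214 and Tfh4 cells, against 38.3, 29.1 and 34.2 CPM in WT. The highest value was KO Tfh214 and the lowest was KO Tfh4, so the WT values lay inside the KO range. The pooled reads gave a KO over WT ratio of 1.04, with an exact binomial 95% interval of 0.795 to 1.35. The start-site peak alone, chr15:101096958-101097629, had 30.4, 38.8 and 22.6 CPM in KO and 28.5, 22.8 and 28.4 CPM in WT. The 6 distal peaks of Nr4a1 had 15.2, 23.8 and 12.9 CPM in KO and 15.1, 13.4 and 16.02 CPM in WT, again with overlapping groups and a pooled ratio of 1.11 (0.745 to 1.65). The largest of them, at the end of the gene, chr15:101104418-101105018, had a mean of 5.67 reads. Such an interval, like every other one given here, covers counting error only, and reads that are PCR copies of one another are not independent.

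Nr4a2 had 58.0, 53.8 and 45.2 CPM at its promoter peaks in KO and 49.9, 51.1 and 35.0 CPM in WT. KO was the higher of each pair, but the groups overlapped and the ratio of the pooled reads was 1.16 (0.925 to 1.44). The larger of its start-site peaks, chr2:56966962-56967746, held 62.3% of the promoter reads and had 37.1, 36.3 and 29.9 CPM in KO, against 32.1, 30.7 and 18.2 CPM in WT. The lowest KO value lay below the WT values of Tfh21 and Tfh214 cells, and the log2 difference was 0.38 ± 0.17 (adjusted p = 0.207, limma), against the median of 0.19 over all single peaks. The peak at the start of the longer transcript, chr2:56975965-56976631, which is the start of the Nr4a2 sequence printed above, had 15.2, 16.3 and 12.1 CPM in KO and 15.1, 14.9 and 10.9 CPM in WT. The 8 distal peaks of Nr4a2 had 39.0, 28.8 and 31.5 CPM in KO, against 22.3, 26.7 and 19.7 CPM in WT. Here all 3 KO libraries lay above all 3 WT libraries. The pooled ratio was 1.46 (1.09 to 1.97), and the log2 difference was 0.51 ± 0.23 (SE; adjusted p = 0.460, limma). The largest of the 8 peaks, with 41.3% of their reads, lay over an exon of the 5′ untranslated region, at chr2:56969143-56969548 in mm9, 6867 bases downstream of the longer transcript's start. That peak had 19.98, 10.02 and 15.3 CPM in KO, against 9.80, 10.2 and 4.37 CPM in WT, or 48 reads in KO and 30 reads in WT. It was below the minimum of 20 reads, and with a minimum of 10 reads its log2 difference was 0.85 ± 0.32 (adjusted p = 0.172, limma).

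Nr4a3 had a negative log2 difference at its promoter and did not pass the test. Its promoter peaks had 17.1, 25.05 and 16.1 CPM in KO, against 27.6, 18.1 and 21.8 CPM in WT. The values overlapped, with KO lower in Tfh21 and Tfh4 cells and higher in Tfh214 cells. The log2 difference was -0.21 ± 0.22 (adjusted p = 0.596, limma), where the median promoter of all genes was at 0.17, so that 1.71% of promoter sums had a lower value. The start-site peak alone, chr4:48057720-48058120, had a log2 difference of -0.27 ± 0.24. Its distal peaks had 29.5, 17.5 and 35.5 CPM in KO, against 30.3, 24.4 and 38.6 CPM in WT. KO was the lower of each pair, as it was for 1037 of all 5184 distal sums tested, and the ranges overlapped.

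The EGR factors bind GC-rich sites and restrain T cell activation, and in mice Egr2 and Egr3 also support Bcl6 in follicular helper cells. The Egr2 start-site peak, chr10:66999525-67000730, was the promoter peak with the most reads of the 19. It had 87.5, 88.9 and 56.5 CPM in KO, against 70.4, 64.5 and 64.8 CPM in WT. The KO values of Tfh21 and Tfh214 cells lay above every WT value and that of KO Tfh4 cells lay below, so the groups overlapped. The ratio of the pooled reads was 1.14 (0.947 to 1.37). Egr3 promoter peaks had 14.3, 17.5 and 13.7 CPM in KO, against 22.3, 16.51 and 13.8 CPM in WT, with a mean below 20 reads. The pooled ratio for Egr3 was 0.863 (0.579 to 1.28). Its main start-site peak, chr14:70476551-70476842, had 10.5, 13.8 and 10.5 CPM in KO and 16.03, 15.7 and 9.47 CPM in WT.

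The single distal peaks of Egr2 and Egr3 were thinly covered, and both lay near the start. That of Egr2, in intron 2 at chr10:67001545-67001803, had 11 reads over the KO libraries and 16 reads over the WT libraries. That of Egr3, over the 5′ untranslated region at chr14:70478222-70478480, had 4 reads in each KO library, while the WT libraries had 0 in Tfh21, 2 in Tfh214 and 7 in Tfh4 cells. Differences between genotypes at these peaks were not detectable at this depth.

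NFATc1 is the NFAT protein that activated T cells make in a short, autoregulated form. Its promoter peaks had 31.4, 35.1 and 30.7 CPM in KO, against 31.2, 29.1 and 25.5 CPM in WT, and the pooled ratio was 1.13 (0.850 to 1.498). The start-site peak with the most reads, chr18:80904767-80905089, had 11.4, 13.8 and 8.88 CPM in KO and 11.6, 13.4 and 13.1 CPM in WT. The 53 distal peaks had 236, 243 and 200.2 CPM in KO, against 253, 219 and 202 CPM in WT. These sums overlapped and had a pooled ratio of 1.002 (0.905 to 1.11). With 1530 reads behind it, this was the most precise ratio of the 14 sums.

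Whether the distal peaks of Nfatc1 differ from each other in their genotype difference was not tested. The largest, in intron 9 at chr18:80808378-80809247 in mm9, lies 95666 bases downstream of its assigned start and held 25.4% of the distal reads. It had 65.6, 68.9 and 61.4 CPM in KO, against 49.0, 59.8 and 42.2 CPM in WT, so all KO values lay above all WT values. On the log2 scale it differed by 0.38 ± 0.12 (adjusted p = 0.0850, limma), against a median of 0.19 over all single peaks. This exceeded the value of 88.5% of all single peaks. With median-of-ratios scaling the log2 difference was 0.20 (adjusted p = 0.999, limma). A smaller peak in intron 8, chr18:80838207-80838757, had 1.90, 6.26 and 0 CPM in KO, against 8.02, 6.29 and 9.47 CPM in WT. Its 7 KO reads and 30 WT reads gave a ratio of 0.285 (0.106 to 0.661). Here and below, the 2-fold rule for single peaks was applied to CPM + 1. By that rule it was the only one of the 101 peaks at least 2-fold apart between pooled KO and WT with 20 or more reads on the higher side. Of all peaks with such reads, 4.22% were at least 2-fold lower and 0.947% at least 2-fold higher.

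Cd69, the lectin-like receptor that holds activated lymphocytes in tissue, had the largest log2 difference between genotypes among the 7 single peaks tested. Its promoter peaks had 21.9, 28.8 and 30.7 CPM in KO, against 17.8, 25.9 and 24.0 CPM in WT, with overlapping groups and a pooled ratio of 1.19 (0.872 to 1.63). Its 7 distal peaks had 62.8, 41.3 and 49.2 CPM in KO, against 29.4, 38.5 and 37.9 CPM in WT. All KO sums lay above all WT sums, and the pooled ratio was 1.46 (1.15 to 1.85). In Tfh21 cells alone the ratio was 2.14 (1.39 to 3.35), where 3.54% of all distal sums had an interval above 1, in Tfh214 cells 1.07 (0.668 to 1.70) and in Tfh4 cells 1.301 (0.884 to 1.92). Whether the ratio differs between populations was not tested, since each rests on 1 library per genotype. The log2 difference was 0.51 ± 0.20 (adjusted p = 0.417, limma), and without the KO or WT Tfh21 library it was 0.23.

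The intron 1 peak of Cd69, chr6:129223590-129224065, lies 1323 bases downstream of the start and held 56.1% of the distal reads of the gene. It had 37.1, 25.05 and 29.1 CPM in KO, against 19.6, 19.7 and 16.7 CPM in WT. The WT libraries were close together and each KO library was higher. KO exceeded WT by 0.66 ± 0.20 on the log2 scale (adjusted p = 0.0734, limma), which exceeded that of 99.5% of all single peaks. Adjusted p was 0.999 when CPM were replaced by median-of-ratios scaling, although the value relative to the median of all peaks was then 0.48, against 0.47 on the deposited scale. It was 0.555 without the KO Tfh21 library, where 2 of all 8986 peaks were called, and 0.0259 without the KO Tfh214 library, where 287 were called. The start-site peak of Cd69, chr6:129225182-129225786, differed less, with a log2 difference of 0.37 ± 0.22 (adjusted p = 0.333, limma).

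**Figure D2:**
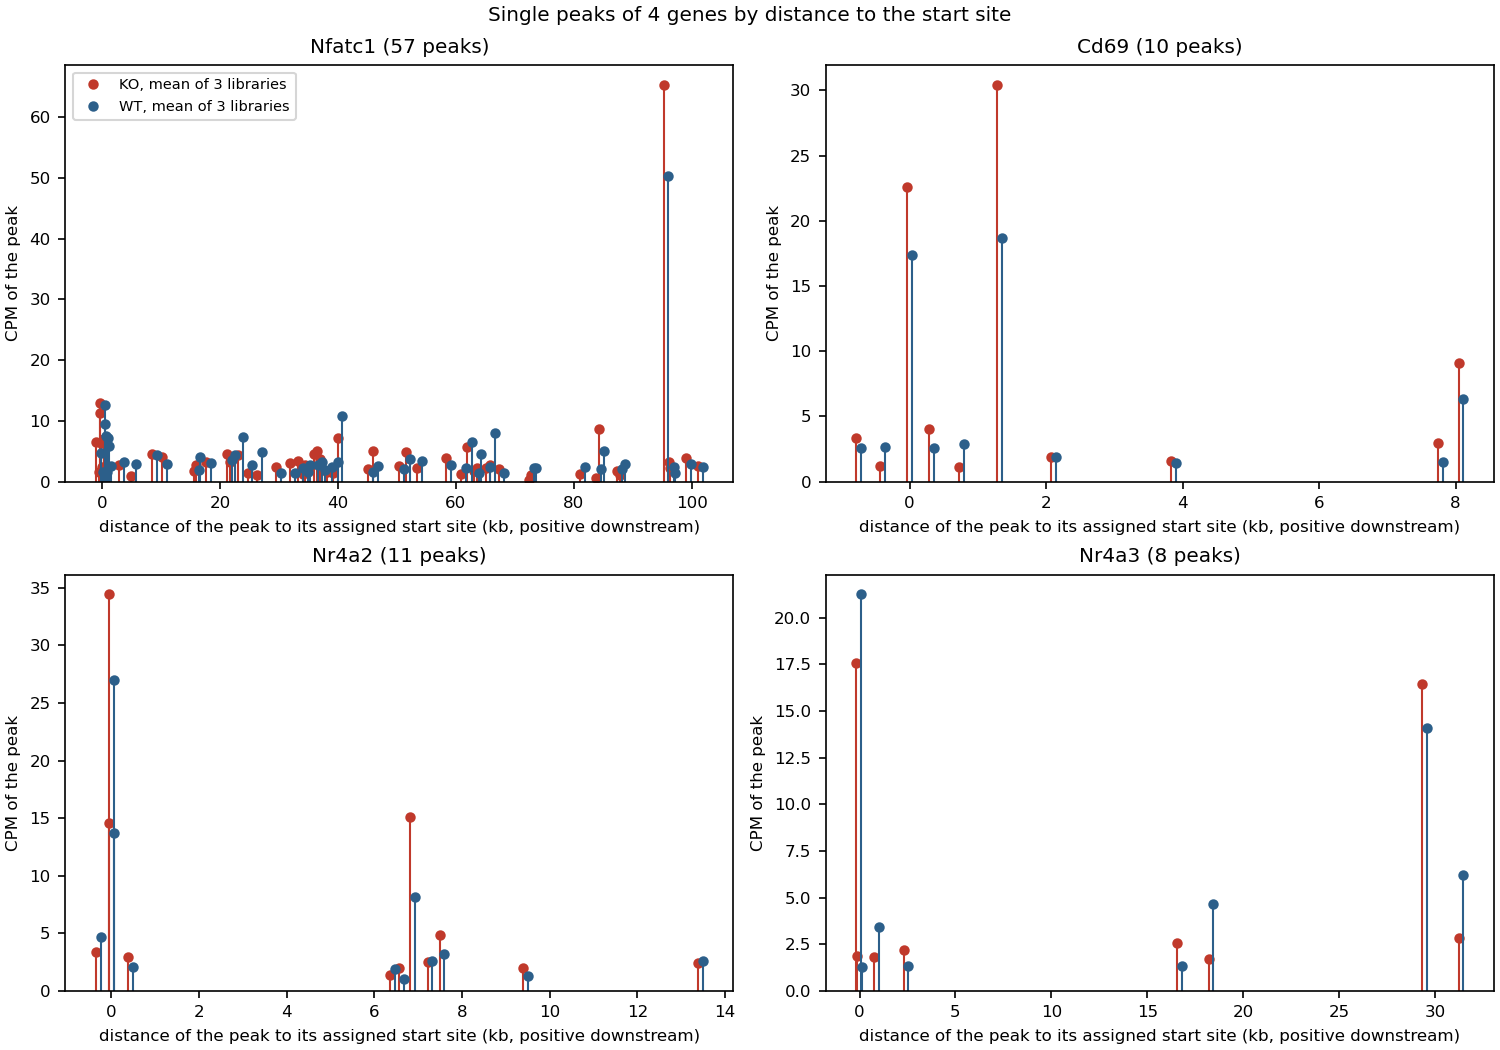
Mean CPM of each peak of Nfatc1, Cd69, Nr4a2 and Nr4a3 over the 3 KO libraries (red) and the 3 WT libraries (blue), against the distance of the peak to its assigned start site in kb, positive downstream. Red and blue points of a peak are shifted sideways so that both can be seen. The tallest Cd69 peak, 1.32 kb downstream of the start, and the tallest Nfatc1 peak, 95.7 kb downstream, are higher in KO.

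Counted together, all KO libraries lay above all WT libraries for 2 of 4 distal sums, those of Nr4a2 and Cd69, against 4.49% of all distal sums. The count was 0 of 6 for promoter sums, against 12.3% of all, although KO was the higher of each pair for 3 of the 6, against 39.8% of all, and 2 of 7 for single peaks, against 13.4% of all. No member had all KO libraries below all WT libraries, against 0.381% of promoter sums, 7.47% of distal sums and 0.323% of single peaks. The CPM scale itself favoured KO at promoters: the median log2 difference was 0.17 over all promoter sums, 0.19 over all single peaks and -0.05 over distal sums. Relative to those medians, the log2 difference was 0.56 for the distal sums of Cd69 and of Nr4a2, 0.47 for the Cd69 intron 1 peak and 0.19 for the Nfatc1 intron 9 peak.

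**Figure D3:**
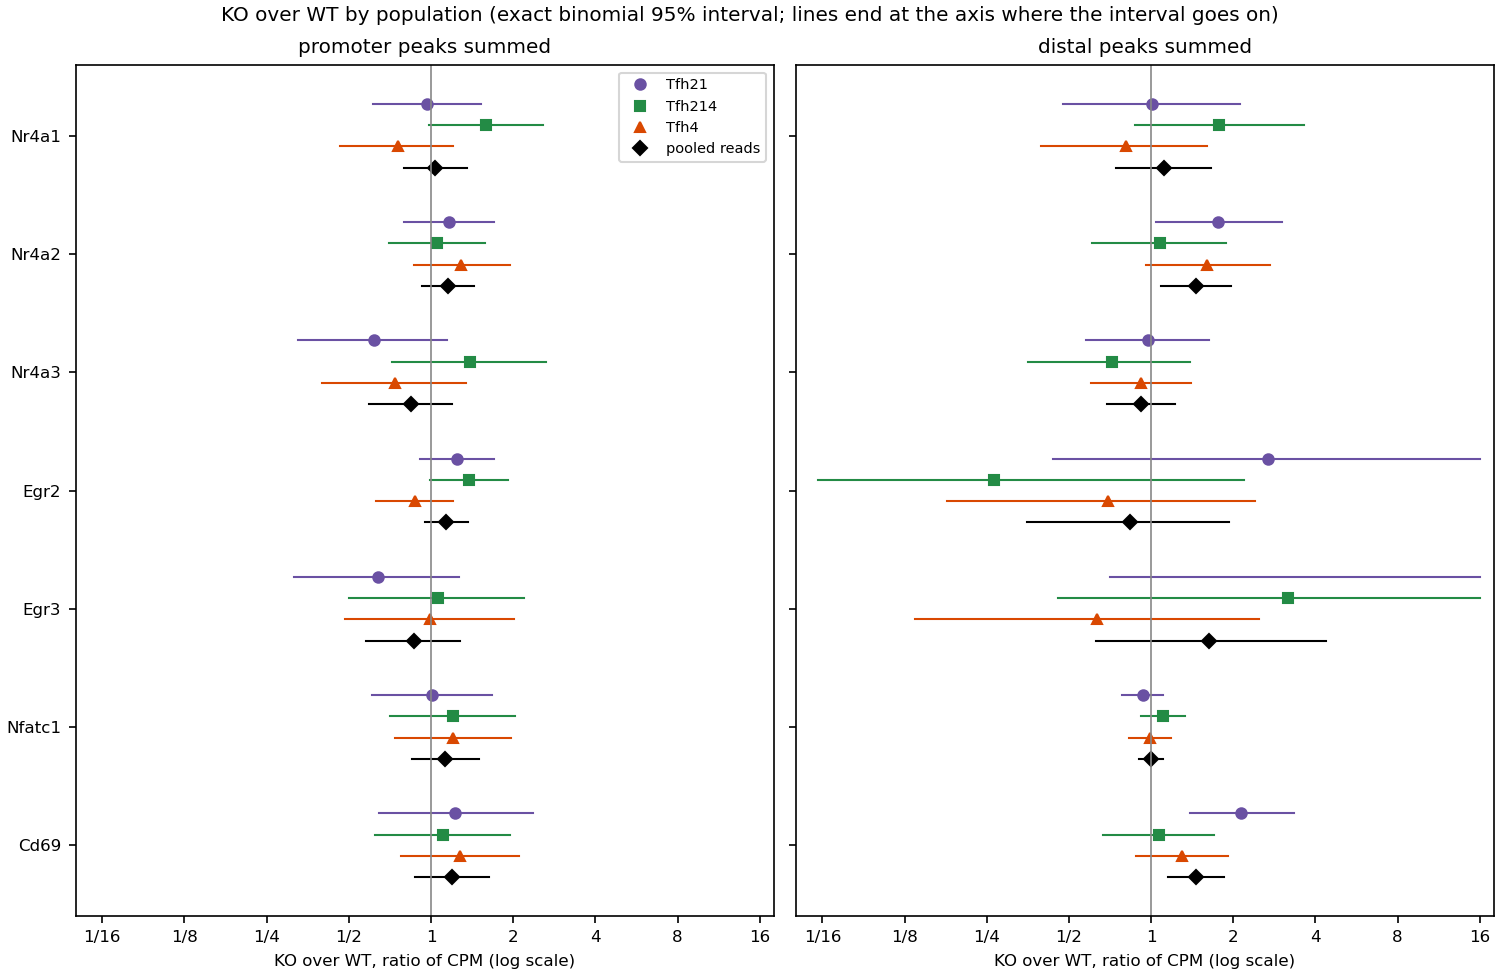
Ratio of KO to WT CPM on a log axis for the promoter sums (left) and the distal sums (right) of each gene, in each population and for the pooled reads, with exact binomial 95% intervals. Egr3 distal peaks in Tfh21 cells have an interval but no point because WT had 0 reads. The pooled intervals of Nr4a2 and Cd69 distal sums lie above 1, and every promoter interval includes 1.

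Read by counting intervals, the pooled KO over WT ratio was above 1 for 2 of the 7 distal sums, Nr4a2 and Cd69, against 3.41% of all distal sums with at least 20 reads on the higher side. It was below 1 for 0 of 7 distal sums, against 9.97% of all, and the interval included 1 for all 7 promoter sums, where 9.16% of all lay above 1 and 0.595% below. With median-of-ratios scaling the Cd69 distal ratio was 1.28 (1.01 to 1.63), the Nr4a2 ratio was 1.29 (0.957 to 1.73) and the Nfatc1 ratio was 0.882 (0.797 to 0.977). On that scale Cd69 alone of the 7 stayed above 1 and Nfatc1 lay below it. The scaling lowers the pooled ratio of every gene by the same factor. The shares of all distal sums with an interval above 1 or below 1 on that scale were not counted. Relative to the median of all distal sums, the log2 difference of Nfatc1 on the deposited scale was 0.06, and 60.6% of distal sums had lower values.

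**Figure D4:**
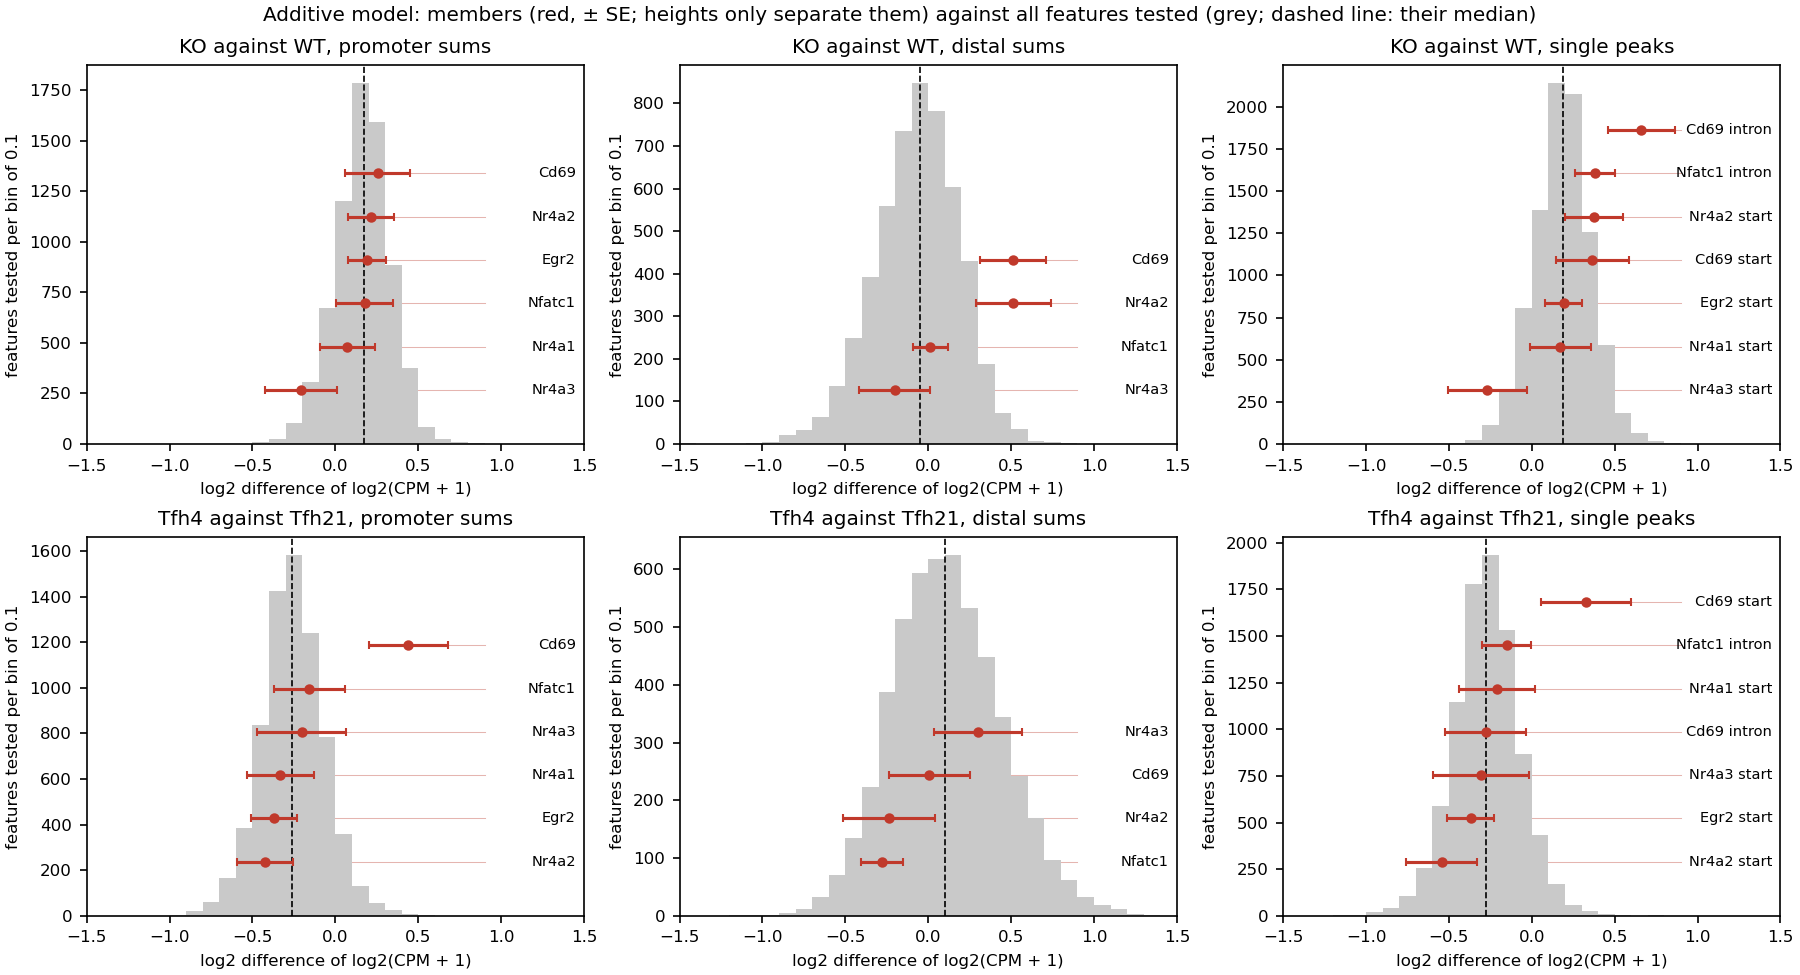
Log2 differences of the members tested (red, ± SE) over the histogram of all features tested (grey; dashed line, their median), for KO against WT (upper row) and Tfh4 against Tfh21 (lower row) in promoter sums, distal sums and single peaks. Heights of the red points only keep them apart. The Cd69 and Nr4a2 distal sums in KO, and the Cd69 promoter sum in Tfh4 cells, lie in the right tail, and Nr4a3 lies in the left tail of the upper promoter panel.

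A list of 47 other genes of the NFAT, AP-1, EGR and calcineurin pathways and their targets was examined beside the members. It had 33 promoter sums and 26 distal sums in the test. None passed an adjusted p of 0.05 between KO and WT by limma, while 9 of the 33 promoter and 3 of the 26 distal sums had an unadjusted p under 0.05, beside 19.5% and 9.92% of all sums. The median log2 difference of the list was 0.17 at promoters, equal to the 0.17 of all promoters, and 0.11 at distal peaks, against -0.05 for all. The largest promoter difference was that of Nab2, a corepressor of EGR factors, with 0.61 ± 0.19 (adjusted p = 0.0614, limma). Cblb, a ubiquitin ligase that limits receptor signalling, had 0.44 ± 0.13 (adjusted p = 0.0636, limma).

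Between populations, the 3 subsets were compared with each other over both genotypes. No member passed limma's adjusted p of 0.05 in Tfh4 against Tfh21, in Tfh4 against Tfh214 or in Tfh214 against Tfh21, in promoter sums, distal sums or single peaks. Of all features, 3.13% of promoter sums and 1.31% of single peaks passed in Tfh4 against Tfh21, and 2.20% and 1.98% in Tfh4 against Tfh214. No distal sum of any gene passed in these contrasts, and no feature at all passed in Tfh214 against Tfh21. At an unadjusted p of 0.05, the members counted 2 of 6 promoter sums, 1 of 4 distal sums and 2 of 7 peaks in Tfh4 against Tfh21, beside 25.7%, 11.5% and 26.1% of all. In Tfh4 against Tfh214 they counted 2, 1 and 3, beside 21.1%, 8.70% and 22.2% of all. In Tfh214 against Tfh21 they counted 0 in each, beside 4.32%, 5.90% and 3.84% of all.

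The median promoter of all genes was lower in Tfh4 cells than in Tfh21 cells, by a log2 difference of -0.26, and each member was read against that value. The Egr2 promoter had a log2 difference of -0.37 ± 0.14 (adjusted p = 0.0915, limma) and the Nr4a2 promoter -0.43 ± 0.17 (adjusted p = 0.104, limma). At Egr2 the populations lay further apart in KO cells, where Tfh4 had 56.5 CPM and Tfh21 had 87.5 CPM, while in WT cells Tfh4 had 64.8 CPM and Tfh21 had 70.4 CPM. The Egr2 value therefore depended on single libraries. It was -0.08 without the KO Tfh4 library (adjusted p = 0.834, limma), -0.28 without the KO Tfh21 library (adjusted p = 0.663), -0.46 without the WT Tfh21 library (adjusted p = 0.444) and -0.66 without the WT Tfh4 library (adjusted p = 0.00938), where 289 of all 7087 promoter sums were called. The larger Nr4a2 start-site peak had a log2 difference of -0.54 ± 0.21 (adjusted p = 0.110, limma), against a median of -0.27 over all single peaks. The pooled Tfh4 over Tfh21 ratio was 0.774 (0.620 to 0.966) for Egr2 and 0.740 (0.563 to 0.972) for Nr4a2, where 14.6% of all promoter sums had an interval below 1 and 0.315% above. Relative to the median of all promoters, the main values were -0.11 for Egr2 and -0.17 for Nr4a2.

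Of the 6 promoter sums tested, that of Cd69 alone had a positive log2 difference between Tfh4 and Tfh21 cells, and it did not pass the test. Its promoter peaks had 30.7 CPM in KO Tfh4 cells against 21.9 CPM in KO Tfh21 cells, and 24.0 CPM in WT Tfh4 cells against 17.8 CPM in WT Tfh21 cells. The log2 difference was 0.44 ± 0.24 (adjusted p = 0.219, limma), or 0.70 above the median promoter, and it exceeded that of 99.9% of promoter sums. A promoter window of 2500 bases on each side of the start, in place of the annotated start-site peaks, takes in the intron 1 peak. With it the log2 difference was 0.09, or 0.33 above the median of such sums, and exceeded that of 95.4% of them. For the annotated start-site peaks, the pooled ratio of Tfh4 over Tfh21 was 1.37 (0.928 to 2.06). Under median-of-ratios scaling it was 1.68 (1.13 to 2.51). Tfh214 cells had 28.8 CPM in KO and 25.9 CPM in WT, with a log2 difference of 0.45 ± 0.24 from Tfh21 cells. The distal peaks of Cd69 did not share this: their pooled Tfh4 over Tfh21 ratio was 0.950 (0.719 to 1.26).

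Nr4a3 had its distal signal highest in Tfh4 and lowest in Tfh214 cells, in both genotypes. Its distal sum was 35.5 CPM in KO Tfh4 cells against 17.5 CPM in KO Tfh214 cells, and 38.6 CPM in WT Tfh4 cells against 24.4 CPM in WT Tfh214 cells. The pooled ratio was 1.71 (1.19 to 2.49), and 11.0% of all distal sums had an interval above 1 in this comparison, while 2.84% had one below. The log2 difference was 0.81 ± 0.26 (adjusted p = 0.424, limma), or 0.72 above the median of all distal sums. With median-of-ratios scaling it was 1.04 (adjusted p = 0.0438), still 0.72 above the median, and 134 of all 5184 distal sums were called on that scale, against 0 on the deposited one. A peak in intron 7, chr4:48089520-48090153, had 22 reads in the Tfh4 libraries and 3 reads in the Tfh214 libraries, a ratio of 5.81 (1.75 to 30.3), and 2.93% of all single peaks with 20 or more reads on the higher side were at least 2-fold higher. A neighbouring intron 7 peak, chr4:48087606-48088005, differed among KO libraries, with 21.8 CPM in Tfh4, 7.51 CPM in Tfh214 and 19.98 CPM in Tfh21 cells, while WT had 13.8, 13.4 and 15.1 CPM. The ratio of KO Tfh4 over KO Tfh214 was 2.90 (1.17 to 8.59), where 0.937% of peaks were at least 2-fold higher, and that of KO Tfh214 over KO Tfh21 was 0.376 (0.124 to 0.963), where 1.47% were at least 2-fold lower.

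Nfatc1 distal peaks had lower values in Tfh4 than in Tfh21 cells on the deposited scale. The pooled ratio was 0.821 (0.727 to 0.928), where 3.28% of all distal sums had an interval below 1 and 13.4% above. With median-of-ratios scaling the ratio was 1.001 (0.886 to 1.13), a shift that the scaling gives to every gene alike. Relative to the median of all distal sums, the log2 difference of Nfatc1 was -0.38 in Tfh4 against Tfh21 and -0.29 in Tfh4 against Tfh214, and 10.6% and 14.8% of distal sums had lower values. The pooled Tfh4 over Tfh214 ratio of Nfatc1 was likewise 0.880 (0.776 to 0.998) on the deposited scale and 1.03 (0.907 to 1.17) on the other. No pooled Tfh214 over Tfh21 interval of the 14 sums excluded 1. Few did among all sums with at least 20 reads on the higher side. The shares were 0.355% above 1 and 1.98% below for promoter sums, and 5.74% and 4.22% for distal sums.

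**Figure D5:**
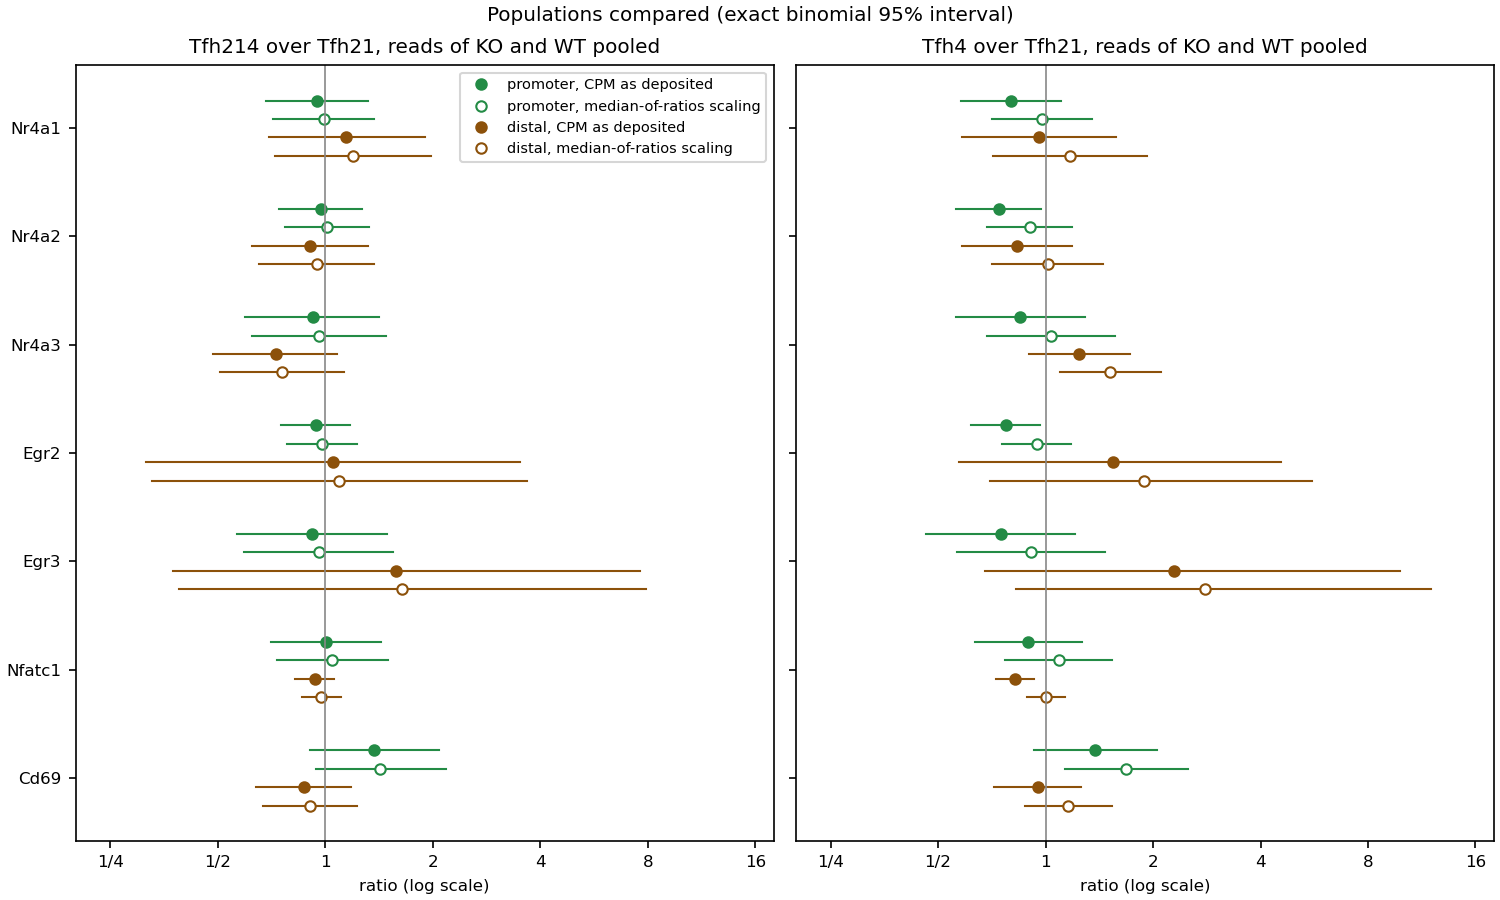
Pooled ratios of Tfh214 over Tfh21 (left) and Tfh4 over Tfh21 (right) for the promoter sums (green) and distal sums (brown) of each gene, on a log axis with exact binomial 95% intervals. Filled symbols use CPM as deposited and open symbols use median-of-ratios scaling. In the right panel the open symbols lie to the right of the filled ones by the same factor, which moves the Nfatc1 distal ratio to 1 and the Cd69 promoter ratio clear of it.

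In the pathway list, 2 promoter sums passed in Tfh4 against Tfh214 cells, both lower. They were Cblb, at -0.63 ± 0.16 (adjusted p = 0.0283, limma), and Ppp3ca, a catalytic subunit of calcineurin, at -0.57 ± 0.17 (adjusted p = 0.0423, limma). The median of the 33 promoter sums was -0.28, against -0.22 for all promoters. With median-of-ratios scaling no promoter sum of any gene passed in this contrast. Of the other list genes, the largest differences did not pass. They were at the distal peaks of Spry1, an inhibitor of receptor tyrosine kinase signalling, with -1.10 ± 0.30 in Tfh4 against Tfh21 (adjusted p = 0.291, limma), at the promoter of Dusp2, a phosphatase of MAP kinases, with -0.82 ± 0.28 in Tfh214 against Tfh21 (adjusted p = 0.999), and at the distal peaks of Cd6, a T cell surface receptor, with -0.66 ± 0.19 in Tfh214 against Tfh21 (adjusted p = 0.809).

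Correlations between the 7 genes over the 6 libraries took both signs, but counting error limits what they show. Egr3, for instance, had 18 to 26 reads per library over all its peaks. A low or negative value therefore cannot tell whether the genes vary together. After the median of all genes was taken off each library, Pearson r between the summed peaks of 2 members ran from -0.84, for Nfatc1 and Cd69, to 0.76, for Egr3 and Nfatc1. Egr2 and Nr4a1 had r = 0.76 and Nr4a2 and Nr4a3 had r = -0.81. These are descriptions over 6 libraries that share their peak list. Among 10824 genes, those most like Nr4a1 were Sf3b4 and Ppib, those most like Nr4a2 were Pou2af1 and Mcoln2, and those most like Cd69 were Nipa2 and Wars2. Zmynd19 and Kmt2e were most like Egr2, Pla2g6 and Kcnc2 most like Egr3, Smu1 and Tmem170b most like Nfatc1, and Arpc3 and Sppl3 most like Nr4a3. These correlations were 0.976 to 0.996, and with 6 libraries between 48 and 188 genes had r over 0.9 with each member.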

How the data were processed

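ATAC-seq had been run on 50000 sorted cells per library, with 1 library for each of 3 populations and 2 genotypes. The deposited table, made by the authors, gives CPM per peak for each library, over 282898 peaks in build mm9. Bowtie 1.3.0, MACS2 2.0 and HOMER appear, with no role stated, in the submitters' processing notes. Treatment of duplicate reads, any shift to the cut site, and whether peaks were called on pooled reads are not given in the sources used here. One field is headed gene symbol per the file headers, but the symbols stand in the field headed gene ID, which was used.

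CPM values were whole multiples of 1 read (tolerance 0.02 reads) for at least 99.9989% of values in each library, so reads were recovered from the deposited CPM. Peaks were summed per gene, promoter and distal apart. Log2(CPM + 1) was fitted with limma 3.58.1 in R 4.3.3, with a variance trend, genotype and population as additive terms and a mean of at least 20 reads, and Benjamini-Hochberg adjustment over all features of a table. With 6 libraries the fit leaves 2 residual degrees of freedom and no replicates. Ratios of single or pooled libraries carry exact binomial 95% intervals (scipy 1.17.1). The scripts were tested on simulated data. Median-of-ratios scaling, edgeR 4.0.16 and DESeq2 1.42.0 on the recovered reads, other pseudocounts and read minimums, a promoter window of 2500 bases and leaving out libraries were the alternatives.

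All 7 genes are named, with the most-read promoter and distal peak of each, every member peak with a mean of at least 20 reads, and every member peak at least 2-fold apart in a pair with at least 20 reads on the higher side. The 2 genes most like each member have the highest Pearson r over 6 libraries. Of the 47 pathway genes, 6 are named, those with the largest log2 difference in any contrast. The members and lists were chosen with earlier results of these data known.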

Additional observations from a re-analysis of the deposited data

How the results depend on the processing

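No pairing by replicate was possible because there was 1 library for each genotype and population. Population, which matches each KO library with a WT library, is already a term of the model. Under the alternatives, the count of members called stayed the same in 186 of 194 cases. The main fit called 0 members in each of its 12 sets of features and contrasts, so the same means 0 again. Some alternatives called few features of any gene, so this count does not measure how stable a result about the members is. In this additive design, leaving out the KO, the WT or both libraries of 1 population gives the same KO against WT difference. For Tfh214 the Cd69 intron 1 peak had 0.82 in each of these settings. Such settings are not separate checks of that difference, although each is counted in the 194 cases and among the log2 differences below. Between KO and WT, 0 to 2 single peaks were called when 1 library was left out, and 1 without both Tfh214 libraries. Without the KO Tfh214 library the calls were the Cd69 intron 1 peak (limma adjusted p = 0.0259) and the Nfatc1 intron 9 peak (0.0473), where 287 of all 8986 peaks were called. Without the WT Tfh214 library they were the same peaks (0.0261 and 0.0483; 266 called in all), and without both it was Cd69 alone (0.0237; 256 in all). Over all alternatives the adjusted p of the Cd69 peak ran from 0.0237 to 0.999934, the highest with edgeR. In Tfh4 against Tfh21 and in Tfh4 against Tfh214, Egr2 alone passed when 1 library was left out, in promoter sums and single peaks. This was without the WT Tfh4 library, which leaves 1 Tfh4 library in the fit. The Egr2 promoter log2 difference was then -0.66 against Tfh21 and -0.61 against Tfh214. Of all promoter sums, 7.51% and 8.16% had lower values. The shares of all features that passed are not set beside these calls. With median-of-ratios scaling 1 distal sum, Nr4a3, was called in Tfh4 against Tfh214 (adjusted p = 0.0438), where the other alternatives gave 0.272 to 0.999835; 134 of all 5184 distal sums were called on that scale. The same scaling reversed the pooled distal Nfatc1 ratios, to 1.001 for Tfh4 over Tfh21 and 1.03 for Tfh4 over Tfh214, by a factor that applies to every gene. It left 1 of 7087 promoter sums called between KO and WT, where the deposited scale gave 72. The cause of these differences was not tested. Of 1090 log2 differences of members, 986 were classed as the same as in the main fit, 98 as moved and 6 as stronger. These counts do not bound the size of a change. Relative to the median of all distal sums, the Cd69 distal log2 difference was 0.56 (SE 0.20) in the main fit and 0.29 without the KO Tfh21 library. Of 514 read ratios, 492 were classed as the same, 20 as moved and 2 as reversed. Depth limits these ratios: at the Cd69 distal peaks 160 KO and 134 WT reads gave an interval of 1.15 to 1.85, while the 1530 reads of the Nfatc1 distal peaks gave 0.905 to 1.11.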

Other observations

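Peaks between genes carry no symbol in the deposited list and so lay outside the sums above. Within 50 kb of the 7 genes, 10 such peaks had a mean of at least 20 reads, a set chosen after the data had been seen. They lay near Nr4a1 (3 peaks), Egr2 (3), Nr4a3 (2), Egr3 (1) and Cd69 (1), and none lay near Nr4a2 or Nfatc1. Nearness does not assign a peak to a gene.

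The peak 1.70 kb upstream of Nr4a3, chr4:48055741-48056476, had more reads than any Nr4a3 peak in the list. It had 55.2, 62.6 and 54.1 CPM in KO Tfh21, Tfh214 and Tfh4 cells and 49.9, 55.8 and 40.8 CPM in WT, with overlapping groups and a log2 difference of 0.23 ± 0.13 (SE; adjusted p = 0.275, limma). Its sign was opposite to that of the Nr4a3 start-site peak, and whether the 2 peaks differ was not tested. The peak 9.06 kb upstream of Cd69 had 47.6, 31.3 and 41.2 CPM in KO and 38.3, 34.6 and 22.6 CPM in WT (log2 difference 0.33 ± 0.16, adjusted p = 0.230, limma).

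A peak 12.5 kb upstream of Nr4a1, chr15:101084249-101084754, passed the test between populations. It had 16.95 CPM in KO Tfh4 cells against 31.4 CPM in KO Tfh21 cells, and 13.8 CPM in WT Tfh4 cells against 29.4 CPM in WT Tfh21 cells. The log2 difference was -0.94 ± 0.26 (adjusted p = 0.0451, limma), where 1.31% of all single peaks were called. Relative to the median of all single peaks it was -0.67, and this was -0.67 with median-of-ratios scaling, -0.70 with edgeR and -0.71 with DESeq2. The call was lost in each of these (adjusted p = 0.999721, 0.999702 and 0.99996) and without the variance trend (0.218), where the log2 difference stayed at -0.94.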
